A study of Homo sapiens with 24 samples.

Results

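Target genes of p53 and the GADD45 family were followed through HEK293 cells that over expressed SIRT6 and were stimulated with TNFα. All probe sets named by the gene table of the array platform for CDKN1A, MDM2, SESN1, BTG2, GADD45A, GADD45B, GADD45G, RRM2B, ZMAT3 or TP53INP1 were taken, whatever their values. This gave 27 of the 54675 probe sets and 9 of the 10 genes, with 10 probe sets for MDM2, 5 for ZMAT3, 4 for GADD45B, 3 for TP53INP1 and 1 each for CDKN1A, SESN1, GADD45A, GADD45G and RRM2B. BTG2 was not analysed here. Of these genes GADD45B alone passed the test with a change over 1.5-fold, and GADD45A passed it with smaller changes in 3 of 12 comparisons.

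HEK293 is a human embryonic kidney line transformed with adenovirus DNA, and the large E1B protein of that virus is known to bind p53 and hold it inactive. Cells were transfected for 24 h with a plasmid for Flag-tagged H133W SIRT6, a mutant without deacetylase activity, with the plasmid for Flag-tagged wild type SIRT6, or with the empty pCDNA3 vector, or were left without DNA and are called untransfected. Each kind of cell was taken with 10 ng/ml TNFα and without it, which made 8 conditions with 3 biological replicates and 24 whole-genome arrays. Stimulation lasted 4 h going by the methods and 1 h going by the design text, so that its length is not settled. The transfection was transient and by the methods reached only part of the cells, and in such a bulk sample fewer responding cells and less RNA per cell cannot be told apart. Values are log2 intensities after normalisation by RMA, and they were compared only within a probe set.

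In unstressed cells p53 is kept low by MDM2, the ubiquitin ligase that marks it for destruction. When DNA is damaged p53 is released and switches on genes that stop the cell cycle (CDKN1A, which encodes p21), restrain growth signalling (SESN1), supply nucleotides for repair (RRM2B), alter RNA stability and splicing (ZMAT3) or promote autophagy and death (TP53INP1), together with MDM2 itself, which closes the loop. GADD45A is a classical p53 target, whereas GADD45B is best known as a gene induced by NFκB after TNFα that curbs JNK signalling, and GADD45G responds to other stress and differentiation signals. All 3 encode small acidic proteins that bind the kinase MAP3K4, PCNA and CDK1.

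Start regions of these genes were searched for letters that p53 and NFκB recognise. The windows shown were picked with the values known, because GADD45B was the member that moved most, GADD45G is its paralogue that passed in no comparison, and the inner MDM2 promoter is a textbook p53 element. Each window holds the 250 bases before a transcription start in RefSeq on GRCh38.p14, on the plus strand. Windows of 7 of the 10 genes were searched, after a filter by chromosome that was applied to the members and not to the background. No window of GADD45A, RRM2B or TP53INP1 was searched, so nothing is said of their matches. Capitals mark matches on either strand to TATAAA, to CCAAT, to the 10-base κB consensus, or to the 20-base p53 consensus with no spacer and up to 2 mismatches.
GADD45B, chr19:2475877-2476126: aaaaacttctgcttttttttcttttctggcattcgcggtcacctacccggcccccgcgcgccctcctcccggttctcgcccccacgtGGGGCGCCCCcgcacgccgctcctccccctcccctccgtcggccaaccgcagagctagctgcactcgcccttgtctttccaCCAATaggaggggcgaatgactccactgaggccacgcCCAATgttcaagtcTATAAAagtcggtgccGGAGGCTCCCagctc
GADD45G, chr9:89604762-89605011: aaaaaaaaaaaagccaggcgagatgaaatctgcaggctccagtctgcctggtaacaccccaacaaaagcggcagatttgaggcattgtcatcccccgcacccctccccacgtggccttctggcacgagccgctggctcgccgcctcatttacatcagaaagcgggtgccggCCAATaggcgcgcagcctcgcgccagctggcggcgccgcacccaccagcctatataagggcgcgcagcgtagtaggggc
MDM2, inner promoter, chr12:68808767-68809016: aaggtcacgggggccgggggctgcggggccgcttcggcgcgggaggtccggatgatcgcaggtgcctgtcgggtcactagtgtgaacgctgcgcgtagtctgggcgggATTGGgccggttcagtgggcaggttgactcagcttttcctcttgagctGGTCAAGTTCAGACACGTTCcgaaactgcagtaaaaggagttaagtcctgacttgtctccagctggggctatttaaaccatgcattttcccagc
GADD45B held TATAAA beginning 31 bases before the start, CCAAT at 82 and 45 bases, and the κB consensus at 163 and 15 bases. GADD45G held only CCAAT, at 79 bases. The κB consensus also occurred in a window of ZMAT3, at 226 bases, a gene that passed in no comparison. The MDM2 window held CCAAT on the other strand and a match to the p53 consensus at 94 bases. Over all 34943 such windows of the table, TATAAA occurred in 10.8%, CCAAT in 32.0%, the κB consensus in 9.95% and the p53 consensus in 0.561%. These matches describe letters and are not measured binding sites.

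The labels were checked on 5 genes that TNFα is known to induce (CCL20, CXCL10, TNFAIP3, NFKBIA and VCAM1), and 5 of 5 rose in each kind of cell. Of the markers of HEK293, VIM, CDH2, NEFL, KRT18, KRT8 and EPCAM were bright, while PAX2 and NEFM lay near the median of the array. Markers of fibroblasts and blood cells were mostly dim, with COL1A1 (7.38) and COL3A1 (7.46) the brightest. CD14, a marker of monocytes, was called in a single comparison, in SIRT6 cells with TNFα (4.50) against empty vector cells with TNFα (3.87, adjusted p = 0.0499). Some arrays stood apart. The log2 distance between the 3′ and 5′ probe sets of β-actin, which grows as RNA degrades, was 3.03 on H133W + TNFα replicate 3 and 2.05 on empty vector replicate 2, and ran from 1.33 to 1.79 on the 21 arrays that did not stand apart. Untransfected replicate 2 was set apart by a low array weight (0.311), and its β-actin distance was 1.65. These weights were estimated for each array as a check and were not used in the fit. The lowest weight among the 21 other arrays was 0.439. Results were therefore also taken without these 3 arrays.

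GADD45B was raised by TNFα in cells without DNA and with the empty vector. The probe set 213560_at is used first because it had the highest mean of the 4. In untransfected cells it read 8.78, 8.65 and 8.75 with TNFα, against 7.76, 7.42 and 7.64 without. These arrays did not overlap, and the rise was 1.12 on the log2 scale (SE 0.10, 2.17-fold, adjusted p = 5.58e-07). In empty vector cells it read 8.55, 8.64 and 8.67 with TNFα, against 7.60, 7.84 and 7.83 without. Again the 3 stimulated arrays lay above the others, by 0.87 (SE 0.10, 1.82-fold, adjusted p = 2.46e-05). The other probe sets gave rises of 1.14, 1.10 and 0.82 in untransfected cells, so that 4 of 4 were called (0.708% of all single-gene probe sets). In empty vector cells 207574_s_at (0.87) and 209304_x_at (0.70) were called as well, 3 of 4 with 213560_at (0.63% of all). The last, 209305_s_at, was higher by 0.51 (adjusted p = 0.00118) and stayed below the fold threshold, so that 4 of 4 passed the adjusted p (1.17% of all). GADD45B was thus 1 of 9 member genes called upregulated in either kind of cell, where 1.02% of all 19775 genes were called without DNA and 0.936% with the vector. No member was called downregulated, against 0.369% and 0.592% of all genes, and 0 and 1 of the 27 probe sets were lower at an unadjusted p under 0.05 (5.07% and 7.8% of all).

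In cells over expressing SIRT6 or H133W the TNFα response of GADD45B passed the adjusted p but not the fold threshold. In SIRT6 cells 213560_at read 8.69, 8.67 and 8.71 with TNFα, against 8.22, 8.09 and 8.18 without. The groups did not overlap, and the difference was 0.52 (SE 0.10, 1.44-fold, adjusted p = 0.0058). In H133W cells it read 8.98, 8.88 and 9.36 with TNFα, against 8.56, 8.46 and 8.53 without. The highest of these values came from replicate 3, the array with the widest β-actin distance. The difference was 0.55 (SE 0.10, adjusted p = 0.00324), and without H133W + TNFα replicate 3 it was 0.41 (adjusted p = 0.0131). In 209305_s_at that array read lowest of the 3 stimulated H133W arrays (7.35, against 7.75 and 7.62). Over the 4 probe sets the differences ran from 0.42 to 0.57 in SIRT6 cells, where 4 of 4 passed the adjusted p (1.1% of all probe sets), and from 0.18 to 0.55 in H133W cells, where 3 of 4 did (1.45% of all). So 0 of 9 member genes were called upregulated in these cells, against 0.93% of all genes in SIRT6 cells and 1.01% in H133W cells, and at an unadjusted p under 0.05 it was 4 of 27 probe sets in each (3.7% and 7.31% of all). None was called downregulated (0.693% and 1.11% of all genes), while 2 and 4 probe sets were lower at an unadjusted p under 0.05 (7.79% and 12.2% of all).

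**Figure D1:**
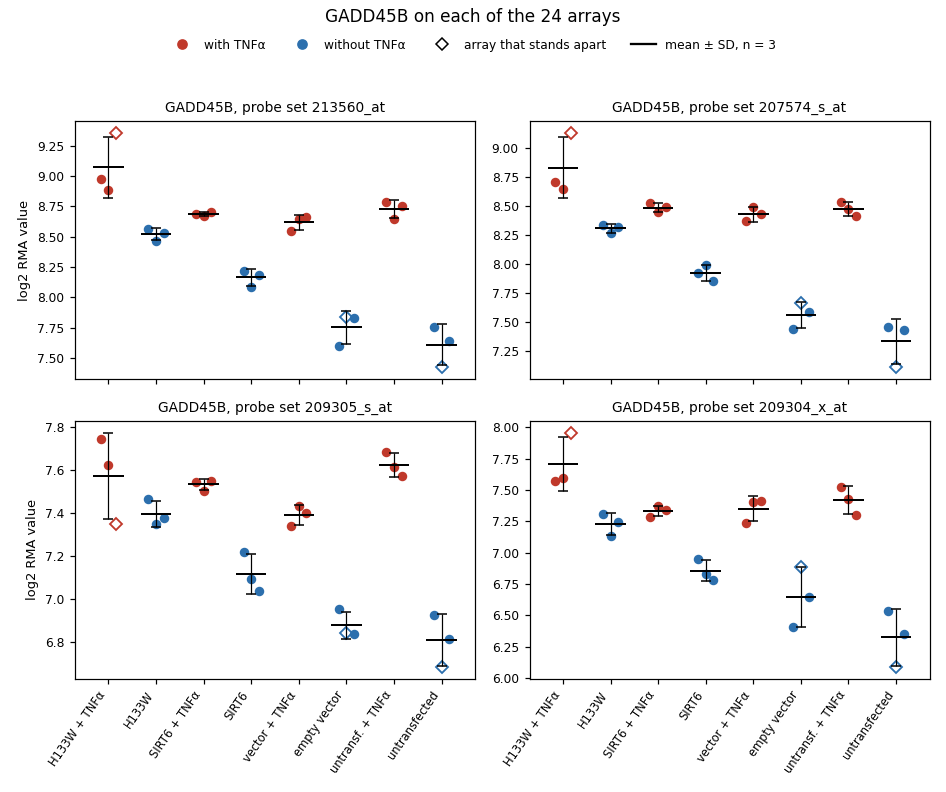
Log2 values of the 4 GADD45B probe sets on each of the 24 arrays, by condition. Points are arrays, open diamonds the 3 arrays that stand apart, and bars the mean ± SD of 3 arrays. For 213560_at the stimulated conditions averaged 8.62 to 9.07 and the unstimulated ones 7.61 to 8.52.

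A response called in some cells and not in others does not show that the responses differ, so the differences were tested directly. For 213560_at the response in H133W cells differed from that in empty vector cells by −0.31 (95% confidence interval −0.61 to −0.01, adjusted p = 0.567). Between SIRT6 and empty vector cells the difference was −0.34 (−0.64 to −0.04, adjusted p = 1), and between H133W and SIRT6 cells 0.03 (−0.27 to 0.33, adjusted p = 0.976). Empty vector cells differed from untransfected cells by −0.26 (−0.56 to 0.05, adjusted p = 1). None of the 4 probe sets passed in any of these 4 tests of a difference. Without the 3 arrays the difference between H133W and empty vector cells for 213560_at was −0.50 (adjusted p = 0.724).

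**Figure D2:**
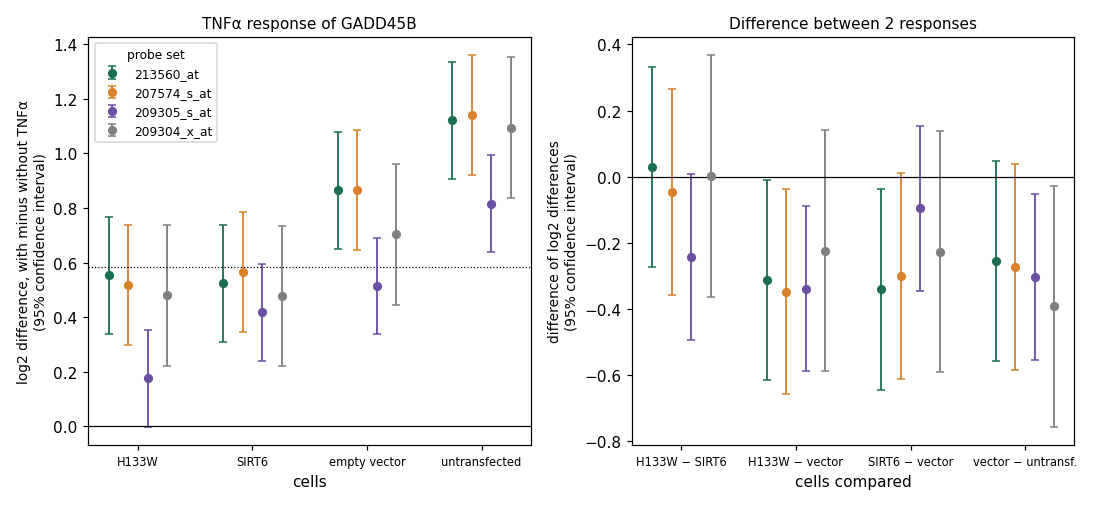
TNFα response of GADD45B in the 4 kinds of cells (left, log2 difference with minus without TNFα, dotted line at 1.5-fold) and the difference between pairs of responses (right), with 95% confidence intervals for 4 probe sets. For 213560_at the responses were 0.55 in H133W, 0.52 in SIRT6, 0.87 in empty vector and 1.12 in untransfected cells, and no difference on the right passed after adjustment.

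Without TNFα, GADD45B was higher in H133W cells than in empty vector cells. The probe set 213560_at read 8.56, 8.46 and 8.53 in H133W cells, against 7.60, 7.84 and 7.83 in empty vector cells. The groups were separate and the rise was 0.77 (SE 0.10, 1.7-fold, adjusted p = 0.000149). The probe set 207574_s_at rose by 0.75 (adjusted p = 0.000276), while 209304_x_at (0.58, adjusted p = 0.0106) and 209305_s_at (0.52, adjusted p = 0.00119) lay below the fold threshold. Thus 2 of 4 were called (0.759% of all probe sets) and 4 of 4 passed the adjusted p (2.25% of all). GADD45B was the 1 member gene called among 9, against 1.31% of all genes upregulated, and 0 were called downregulated, against 0.157%, with 0 of 27 probe sets lower at an unadjusted p under 0.05 (8.57% of all). The call of 213560_at was kept under every alternative tried, and without the 3 arrays its rise was 0.81 (adjusted p = 3.65e-06).

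In SIRT6 cells without TNFα the same probe set read 8.22, 8.09 and 8.18, which lay between the H133W and the empty vector arrays. It was higher than in empty vector cells by 0.41 (95% confidence interval 0.20 to 0.62), a difference that missed the threshold (adjusted p = 0.221). The rest gave 0.21 to 0.36, and 0 of 9 member genes were called, against 0.0708% of all genes upregulated and 0% downregulated. At an unadjusted p under 0.05, 8 of 27 member probe sets were higher and 0 lower, against 3.78% and 2.05% of all probe sets. These 8 were 207574_s_at, 209305_s_at and 213560_at of GADD45B, 205385_at and 217373_x_at of MDM2, 244721_at of TP53INP1, GADD45A and GADD45G. Of these, 244721_at lay near the floor of the arrays (3.01 in SIRT6 and 2.65 in empty vector cells). For 217373_x_at the empty vector arrays read 5.57, 4.86 and 5.94, with the lowest on replicate 2, which stands apart. Without the 3 arrays 213560_at was higher by 0.45 (adjusted p = 0.0109) and 207574_s_at by 0.41 (adjusted p = 0.00765), both still under 1.5-fold. Between H133W and SIRT6 cells GADD45B was higher in H133W by 0.36 (213560_at, adjusted p = 0.191), with 0.28 to 0.39 over the 4 probe sets. None passed with all arrays, no member gene was called (0.202% of all genes upregulated, 0.0354% downregulated), and 4 probe sets were higher and 1 lower at an unadjusted p under 0.05 (4.27% and 4.7% of all). Without the 3 arrays the 4 probe sets of GADD45B gave differences of 0.28 to 0.39, with adjusted p from 0.00132 to 0.0228. The share of all probe sets that passed in that fit is not given here.

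With TNFα, GADD45B was higher in H133W than in empty vector cells in 2 of 4 probe sets. Stimulated H133W cells read higher than stimulated empty vector cells by 0.45 (213560_at, adjusted p = 0.012) and 0.40 (207574_s_at, adjusted p = 0.0315), below the fold threshold, and 209304_x_at and 209305_s_at (0.36 and 0.18) did not pass, where 3.41% of all probe sets passed the adjusted p upwards. This rested in part on H133W + TNFα replicate 3, without which the 2 differences were 0.31 (adjusted p = 0.0582) and 0.25 (adjusted p = 0.153). Without the 3 arrays the same differences passed the adjusted p (0.0155 and 0.0248). H133W + TNFα replicate 3 read lowest in 209305_s_at (7.75, 7.62 and 7.35 for replicates 1, 2 and 3) and highest in the other GADD45B probe sets. Stimulated SIRT6 cells differed from stimulated empty vector cells by −0.02 to 0.14, with 95% confidence intervals from −0.28 to 0.32. Stimulated H133W cells differed from stimulated SIRT6 cells by 0.04 to 0.39, of which none passed. No member gene was called upregulated in these 3 comparisons, where 2.05%, 0.126% and 0.546% of all genes were, nor downregulated (0.693%, 0.0101% and 0.137%). At an unadjusted p under 0.05, 6, 1 and 4 member probe sets were higher, against 10.1%, 3.48% and 7.97% of all, and 6, 0 and 6 were lower, against 12.2%, 2.75% and 9.13%.

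Between empty vector and untransfected cells no difference in GADD45B passed. For 213560_at the difference was 0.15 without TNFα (adjusted p = 0.6) and −0.11 with it (adjusted p = 0.774). No probe set of the 27 passed in these comparisons, and 0 of 9 genes were called in either direction (0.142% of all genes upregulated without TNFα, 0.0405% with it, and 0% downregulated in both). At an unadjusted p under 0.05, 2 probe sets were higher and 1 lower without TNFα (5.06% and 6.29% of all), and 1 higher and 1 lower with it (4.11% and 5.56%). The untransfected replicate 2 array read lowest of all 24 in each GADD45B probe set, and without the 3 arrays the TNFα response of 213560_at was 1.03 in untransfected and 0.91 in empty vector cells (adjusted p = 9.03e-08 and 4.8e-07).

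GADD45A, the family member under p53 control, passed the adjusted p in H133W against empty vector cells without and with TNFα, and in SIRT6 against empty vector cells with TNFα. Its single probe set read 10.87, 10.74 and 10.80 in H133W cells, against 10.38, 10.29 and 10.37 in empty vector cells. The groups did not overlap, and the difference was 0.45 (SE 0.07, 1.37-fold, adjusted p = 0.000748). In SIRT6 cells it read 10.62, 10.64 and 10.72, also above each empty vector array. This difference of 0.31 (95% confidence interval 0.17 to 0.46) did not pass (adjusted p = 0.158), and without the 3 arrays it was 0.29 (adjusted p = 0.0315).

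With TNFα GADD45A read 10.83, 10.84 and 10.57 in H133W cells, against 10.36, 10.28 and 10.34 in empty vector cells. The difference was 0.42 (adjusted p = 0.00117), and 0.51 without H133W + TNFα replicate 3, the lowest of the 3. In SIRT6 cells with TNFα it read 10.70, 10.68 and 10.71, higher than in empty vector cells with TNFα by 0.37 (adjusted p = 0.0387), where 0.144% of all probe sets passed upwards. All of these were below 1.5-fold and so were not called. Between H133W and SIRT6 cells GADD45A differed by 0.14 without TNFα (95% confidence interval −0.01 to 0.29) and by 0.05 with it (−0.10 to 0.20), and neither passed (adjusted p = 0.609 and 0.79). TNFα itself changed it by −0.05 in H133W, 0.04 in SIRT6, −0.02 in empty vector and −0.09 in untransfected cells (95% confidence intervals within −0.23 and 0.18). The means of GADD45A thus lay at 10.66 to 10.80 in the 4 conditions with a SIRT6 or H133W plasmid and at 10.21 to 10.35 in the other 4.

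GADD45G was near the median of the array and passed in no comparison. Its probe set read 5.10, 4.86 and 5.15 in H133W cells with TNFα, against 5.25, 5.38 and 5.33 in H133W cells without. Those arrays did not overlap, but the difference of −0.29 (95% confidence interval −0.55 to −0.02) did not pass (adjusted p = 0.235). The difference was also negative in SIRT6 (−0.23), empty vector (−0.15) and untransfected cells (−0.13), the opposite sign to GADD45B.

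**Figure D3:**
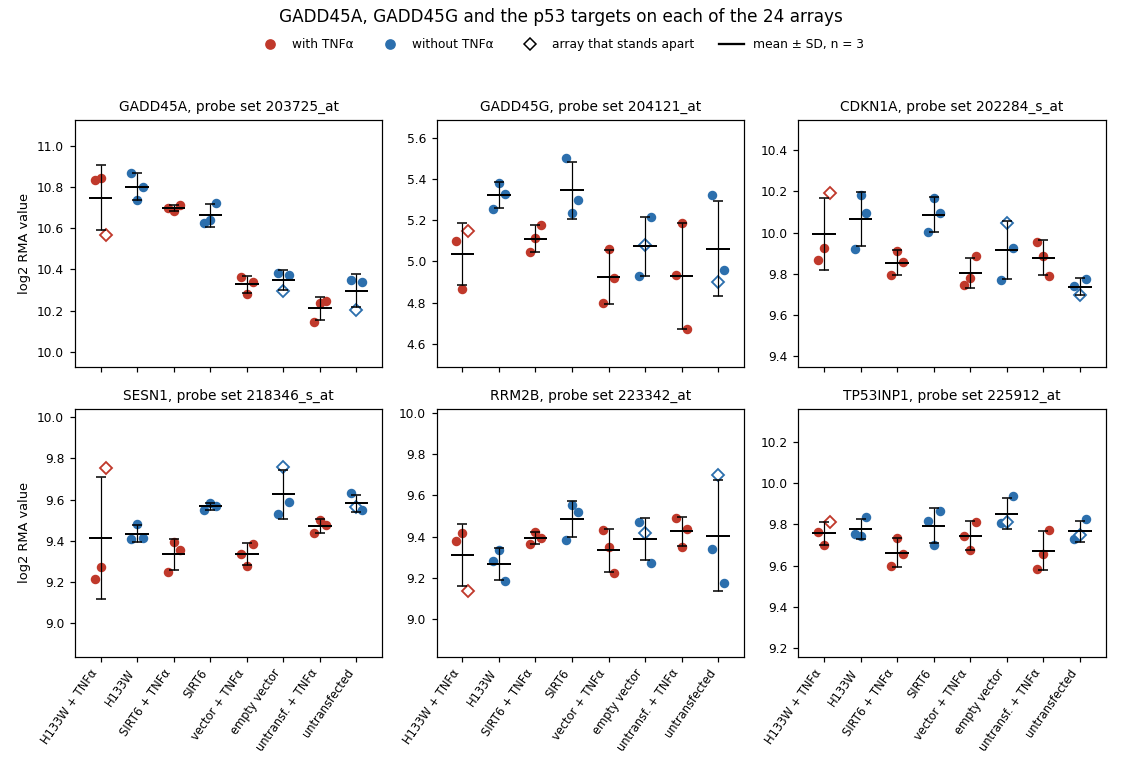
Log2 values of GADD45A, GADD45G, CDKN1A, SESN1, RRM2B and TP53INP1 (225912_at) on each of the 24 arrays, by condition. Points are arrays, open diamonds the 3 that stand apart, and bars the mean ± SD of 3 arrays. GADD45A lies at 10.66 to 10.80 on average in conditions with a SIRT6 or H133W plasmid and at 10.21 to 10.35 without one.

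CDKN1A, which encodes the cyclin-dependent kinase inhibitor p21, was bright on every array, from 9.70 to 10.19. It read 9.92, 10.18 and 10.10 in H133W cells and 10.00, 10.17 and 10.09 in SIRT6 cells, against 9.77, 10.05 and 9.93 in empty vector cells. These overlapped, and the differences were 0.15 and 0.17 (adjusted p = 0.479 and 0.954). The widest response to TNFα was in SIRT6 cells, which read 9.79, 9.91 and 9.86 with TNFα, against 10.00, 10.17 and 10.09 without. The groups did not overlap, but the difference of −0.23 (adjusted p = 0.299) did not pass, and in untransfected cells the sign was positive (0.14, adjusted p = 0.791). Over 12 comparisons its 95% confidence intervals lay within −0.42 and 0.38, inside the 1.5-fold limit of 0.585.

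SESN1, a sestrin that restrains mTORC1, averaged lower with TNFα in each kind of cell. In empty vector cells it read 9.34, 9.28 and 9.39 with TNFα, against 9.53, 9.76 and 9.59 without. In SIRT6 cells it read 9.25, 9.40 and 9.36 with TNFα, against 9.55, 9.58 and 9.57 without. In both the stimulated arrays lay below the others, yet neither difference passed (−0.29, adjusted p = 0.178, and −0.23, adjusted p = 0.377). Without the 3 arrays both passed the adjusted p, at −0.23 (adjusted p = 0.0363) and −0.23 (adjusted p = 0.00982), below the fold threshold. None of the 3 arrays belongs to the SIRT6 comparison, so there only the pooled spread and the adjustment changed. In H133W cells the difference was −0.02, with replicate 3 of the stimulated cells (9.75) above the unstimulated arrays and replicates 1 and 2 (9.21 and 9.27) below them. Without that array it was −0.19 (adjusted p = 0.158). In untransfected cells it was −0.11 (adjusted p = 0.916).

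MDM2 was read by 10 probe sets that behaved unlike each other. The brightest, 229711_s_at, ran only from 11.84 to 12.12 over 24 arrays, and the 95% confidence intervals of its 12 differences lay within −0.19 and 0.23. The 3 probe sets 205386_s_at, 211832_s_at and 217373_x_at scattered most. For 211832_s_at the values were 5.63, 5.45 and 4.46 in H133W cells with TNFα, against 6.08, 5.86 and 5.94 in H133W cells without. The groups did not overlap, and the difference of −0.78 was the nearest to passing among members other than GADD45A and GADD45B (adjusted p = 0.0701). Its lowest value came from replicate 3, and without the 3 arrays the difference was −0.42 (adjusted p = 0.0378), below the fold threshold. Leaving out replicate 1 instead, which leaves replicates 2 and 3, gave −1.003 (adjusted p = 0.0164) and so a call.

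On H133W + TNFα replicate 3 the probe set 205386_s_at read 3.34, against 5.35 and 5.45 on the other replicates. On empty vector replicate 2, the array with the next widest β-actin distance, it read 4.57, against 5.87 and 5.66. ZMAT3, which encodes an RNA-binding zinc finger protein, showed the same 2 arrays low in some probe sets. Its 219628_at read 10.22, 10.29 and 9.49 in H133W cells with TNFα, and 228315_at read 10.04, 10.05 and 9.34, with replicate 3 the lowest in both. In 227221_at replicate 3 did not stand out (10.33, 10.37 and 10.36). How far RNA quality set these values was not tested. No MDM2 or ZMAT3 probe set passed in any of the 12 comparisons, and the changes ran from −1.05 to 0.51 for MDM2 and from −0.42 to 0.27 for ZMAT3. The x in the name of 217373_x_at, 225160_x_at and 244616_x_at marks probes that can also bind other transcripts, as in 209304_x_at of GADD45B.

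**Figure D4:**
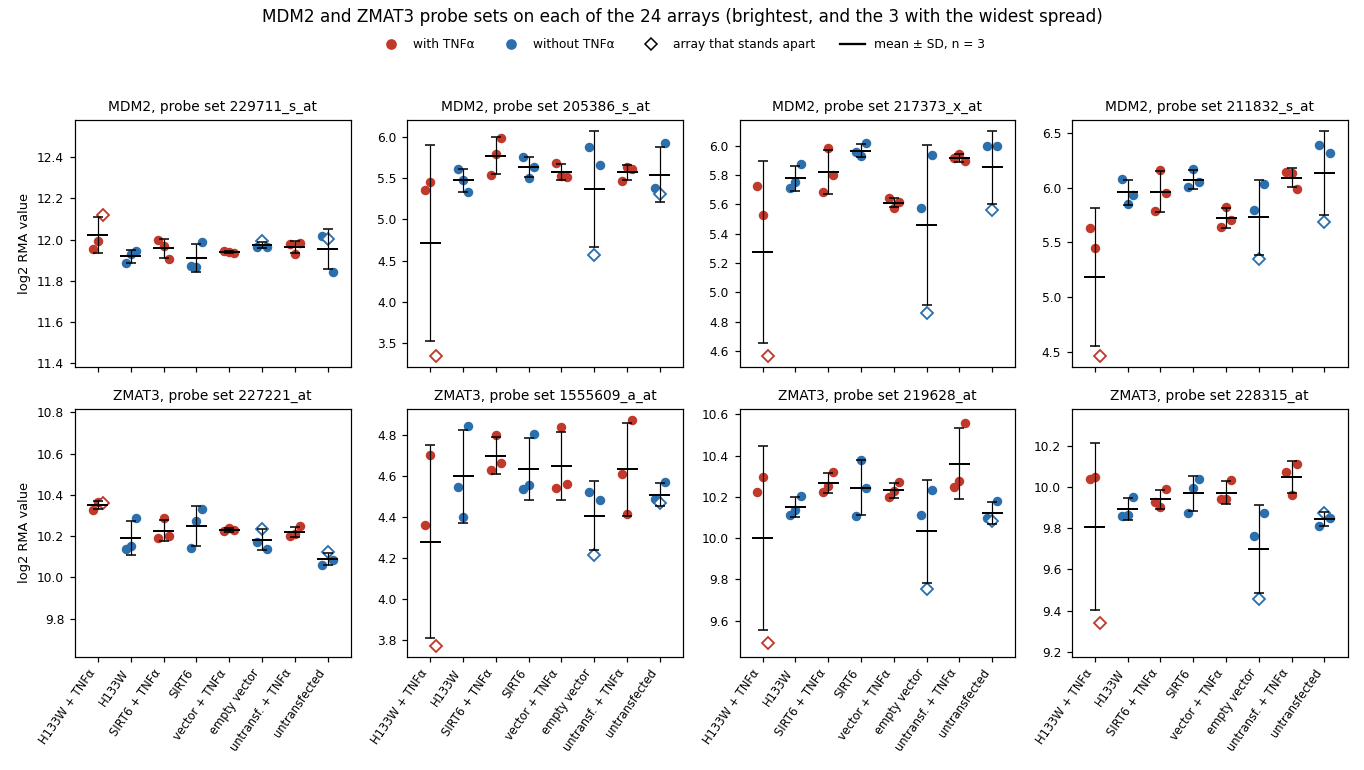
Log2 values of MDM2 (top) and ZMAT3 (bottom) on each of the 24 arrays, by condition, in the brightest probe set and the 3 with the widest spread. Points are arrays, open diamonds the 3 that stand apart, and bars the mean ± SD of 3 arrays. H133W + TNFα replicate 3 is the lowest array in 211832_s_at (4.46), 205386_s_at (3.34), 219628_at (9.49) and 228315_at (9.34), but not in 229711_s_at or 227221_at.

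TP53INP1, which acts in autophagy and cell death, had 1 bright and 2 dim probe sets. The bright one, 225912_at, ran from 9.59 to 9.94 over all arrays, and its 12 differences lay between −0.13 and 0.09. The dim ones reached at most 3.39 and passed nowhere. RRM2B, the p53-inducible subunit of ribonucleotide reductase, ran from 9.14 to 9.70, with differences from −0.22 to 0.10. It read 9.28, 9.33 and 9.18 in H133W cells, against 9.38, 9.55 and 9.52 in SIRT6 cells, which was the widest of them (adjusted p = 0.58). Across the 7 genes other than GADD45A and GADD45B, 0 of 264 tests reached an adjusted p under 0.05 and 30 (11.4%) had an unadjusted p under 0.05, against 12.5% for all probe sets over the same comparisons.

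**Figure D5:**
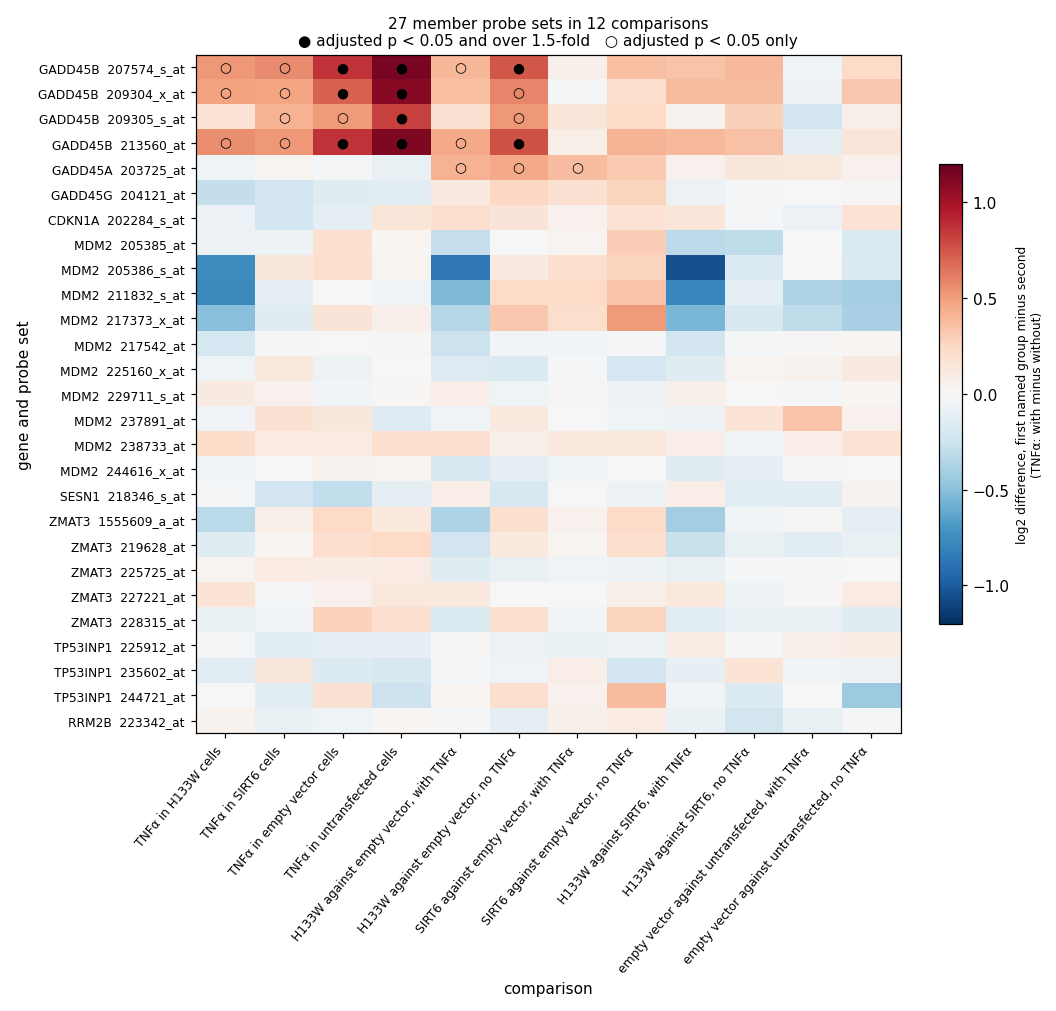
Log2 difference of each of the 27 probe sets (rows) in 12 comparisons (columns), first named condition minus second. Filled circles mark an adjusted p under 0.05 with over 1.5-fold, open circles an adjusted p under 0.05 alone. Circles fall only in the rows of GADD45B and GADD45A, and the deepest blue, −1.05, is MDM2 205386_s_at in H133W against SIRT6 cells with TNFα.

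The median change of the 27 probe sets was set beside that of all probe sets. With TNFα it was −0.05 in H133W, 0.02 in SIRT6, 0.09 in empty vector and 0.03 in untransfected cells, against −0.01, −0.03, −0.03 and −0.01 for all. Without TNFα it was 0.11 in H133W and 0.21 in SIRT6 cells relative to empty vector cells, against −0.02 and 0.00 for all. These medians were taken with all arrays, and both rest on empty vector cells, whose replicate 2 stands apart. MDM2 alone gave 10 of the 27 probe sets, so the median is not that of the genes.

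Other genes of the pathway were taken from lists written from general knowledge. Of 38 further p53 targets, 4 rose with TNFα in untransfected cells, 2 in empty vector, 2 in SIRT6 and 1 in H133W cells, where 1.02%, 0.936%, 0.93% and 1.01% of all genes were called upregulated. None fell, where 0.369%, 0.592%, 0.693% and 1.11% of all genes did. The genes that rose were FAS and TNFRSF10B, which encode death receptors, NINJ1, which encodes a membrane protein that ruptures dying cells, and DRAM1, a regulator of autophagy. FAS (204780_s_at) averaged 9.48 with TNFα against 8.70 without in untransfected cells (0.78, adjusted p = 2.08e-06), and 9.42 against 8.83 in empty vector cells (0.59, adjusted p = 9.55e-05). NINJ1 averaged 8.68 with TNFα against 7.68 without in H133W cells (0.99, adjusted p = 0.0017). Without the 3 arrays this rise was 0.70 (adjusted p = 0.000114) and still called. TNFRSF10B rose by 0.65 in empty vector cells (209294_x_at), and its calls there were lost without the 3 arrays (0.52 and 0.56).

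Without TNFα the targets ATF3 and SESN2 rose in H133W cells relative to empty vector cells, 2 of 38 (1.31% of all genes), and ATF3 in SIRT6 cells, 1 of 38 (0.0708% of all). ATF3 encodes a stress-induced transcription factor that p53 and other pathways switch on, and SESN2 is the paralogue of SESN1. ATF3 (202672_s_at) averaged 10.41 in H133W and 9.90 in SIRT6 cells, against 9.31 in empty vector cells (1.10, adjusted p = 6e-08, and 0.59, adjusted p = 0.00187). SESN2 (223195_s_at) averaged 7.62 in H133W cells, against 6.99 in empty vector cells (0.63, adjusted p = 3.34e-05). With TNFα, ATF3 (0.95), SESN2 (0.68 and 0.73 in 2 probe sets) and TRIM22 (0.62) rose in H133W cells relative to empty vector cells, 3 of 38 (2.05% of all genes), and TRIM22 was not called without the 3 arrays (0.46).

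Of 22 regulators of p53, none rose in any of the 12 comparisons, where 0.0405% to 2.05% of all genes did, and 1 fell in a single one. This was ATM, the kinase that senses DNA breaks, by −0.71 with TNFα in H133W cells (208442_s_at, adjusted p = 0.016), where 1.11% of all genes were called downregulated, and it was below the fold threshold without the 3 arrays (−0.49). Of 9 partners of the GADD45 proteins, CDK1 fell in stimulated H133W cells relative to stimulated empty vector cells (231534_at, −0.61, adjusted p = 0.0315), where 0.693% of all genes were called downregulated, again not called without the 3 arrays (−0.31). Of 10 cyclins, kinases and other partners of p21, none was called in either direction (0% to 1.11% of all genes downregulated over the 12 comparisons), and the widest change in H133W cells without TNFα was CDK6 (0.47, adjusted p = 0.379). Of 16 paralogues, SESN2 was called as above, and SESN3 fell with TNFα, as 1 of 16. In empty vector cells the probe set was 235683_at (−0.70, adjusted p = 0.00149, 0.592% of all genes downregulated). In H133W cells it was 242899_at (−0.62, adjusted p = 0.0468), not called without the 3 arrays (−0.38, adjusted p = 0.138). The calls of ATM, CDK1 and SESN3 thus each rest on the 1 probe set named, for SESN3 a different one in each kind of cell.

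Genes with the most similar profile were sought over the 8 condition means, among 927 probe sets whose means spanned at least 1. For GADD45B (213560_at) they were ZBTB46 (Pearson r 0.99), YPEL5 (0.98), ZFP36 (0.98) and OPTN (0.97). For GADD45A they were THAP9-AS1 (0.99), UNC5CL (0.98), PVT1 (0.98) and ZNF79 (0.97). For CDKN1A the likeness was weaker, with ESRP1 (0.95), RGMB (0.90), ZFP69B (0.89) and ABCG1 (0.89). These are descriptions over 8 points that share the same arrays.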

How the data were processed

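HEK293 RNA was measured on 24 Affymetrix HG-U133 Plus 2.0 arrays, 3 for each of 8 conditions given by the labels. The authors normalised the intensities by RMA in ArrayStudio, and the deposited log2 values were used as they are. Probe sets were named by the platform's gene table, matched to current RefSeq symbols by Entrez ID for 41043 of the 41097 single-gene probe sets, which stand for 19775 genes. Probe sets with several genes (1801) or no name (11777) were left out of the counts.

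A mean per condition was fitted over all arrays with limma 3.58.1 in R 4.3.3 (moderated variances, 16 residual and 3.47 prior degrees of freedom). P values of each comparison were adjusted by Benjamini-Hochberg over 54675 probe sets. A transcript was called at an adjusted p under 0.05 with over 1.5-fold change (0.585 on the log2 scale), the thresholds in the study's methods, and a gene by any of its probe sets. Differences between TNFα responses were judged by adjusted p alone. P values rest on a spread pooled, within each probe set, over the 3 replicates of every condition, not only of those compared. An array that stands apart can therefore change the p values of comparisons it is not part of. The number of arrays limits the precision. Where the arrays of 2 conditions did not overlap, this describes the values and is no test. The share of all probe sets without overlap is not given here. The fit was tested on simulated data.

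The members and lists were chosen with earlier results of these data known. All members are described. From each list up to 4 called genes per comparison with the largest change are named, or 1 where none was called. Alternatives were a variance trend, a plain linear model, a fit to just the arrays compared, leaving out probe sets under a mean of 4, quantile normalising or centring again, no fold threshold, the brightest probe set per gene, a count of probe sets, a replicate block, and leaving out the 3 arrays that stand apart or each array in turn. Promoter windows came from RefSeq on GRCh38.p14. The protein and imaging experiments were not analysed here.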

Additional observations from a re-analysis of the deposited data

How the results depend on the processing

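The call of GADD45B as upregulated in untransfected cells with TNFα, in empty vector cells with TNFα, and in H133W against empty vector cells without TNFα was kept under all alternatives. Counted as probe sets in place of genes these were 4, 3 and 2. Without a fold threshold, 1 member gene was upregulated with TNFα in SIRT6 cells and 1 in H133W cells. Against empty vector cells it was 2 in H133W cells without TNFα, 1 in SIRT6 cells with TNFα and 2 in H133W cells with TNFα. Of all probe sets 1.1%, 1.45%, 2.25%, 0.144% and 3.41% passed the adjusted p upwards in these comparisons, in that order. Shares of all genes without a fold threshold, or under the settings that follow, are not given here. Quantile normalising again raised the count to 1 with TNFα in SIRT6 and in H133W cells (GADD45B by 0.61 and 0.59), and centring the arrays to 1 in H133W cells (0.60). Leaving out single arrays, the counts upregulated ran from 0 to 1 with TNFα in SIRT6 cells (1 without SIRT6 replicate 2 or SIRT6 + TNFα replicate 2) and in H133W cells (1 without H133W + TNFα replicate 1 or 2). Counts downregulated ran from 0 to 1 with TNFα in H133W cells, and in H133W against empty vector and against SIRT6 cells with TNFα, which was MDM2 without H133W + TNFα replicate 1 (211832_s_at, −1.003, −0.77 and −1.01). For 209304_x_at of GADD45B the call in empty vector cells with TNFα was lost on the arrays of the comparison alone (adjusted p = 0.0533). It was also lost without empty vector replicate 1 (0.58). This probe set was called in H133W against empty vector cells without TNFα when H133W replicate 2 (0.63) or empty vector replicate 2 (0.70) was left out. No result reversed, and the plain linear model gave the same counts of called member genes as limma. Probe sets near the floor of the arrays, such as 237891_at of MDM2 and the dim ones of TP53INP1, carry little information on change.

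Replicates share numbers across conditions, but the labels do not say that a number marks a shared culture. Deviations from the condition means correlated by −0.38 to 0.28 between same-numbered arrays (median 0.02), over 0.1 in 8 of 36 pairs, and the same number correlated highest in 15. With a replicate block no count of called genes changed. The adjusted p of GADD45A in SIRT6 against empty vector cells with TNFα became 0.0623, and that of 209304_x_at with TNFα 0.0756 in SIRT6 and 0.0553 in H133W cells.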
